A study of Rattus norvegicus with 11 samples.

Results

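The 10 genes followed here mark astrocytes, and were read in 11 RNA-seq libraries labelled as cerebellum cortex of rats with and without a mutation of CSB, the DNA repair protein encoded by Ercc6 and mutated in Cockayne syndrome. They were Gfap, Vim, Aqp4, Slc1a2, Slc1a3, Gja1, Gjb6, Aldoc, S100b and Sox9, chosen by name with earlier results of these libraries known, among them the high Gfap of the mutants. A feature of that name was listed in every file for 8 of the 10 genes, out of 23093 features that every file lists. Slc1a2 and Gjb6 had no feature of that name and were not analysed here. All rats were of the Sprague-Dawly (SD) strain and 10 weeks old. There were 6 libraries of rats homozygous for the R571X allele of CSB, 3 of wild-type rats and 2 that the titles call heterozygous, in whose genotype label the other allele is not spelled out. No label ties a library to an animal of its own, and p-values therefore reflect only the spread among these libraries, which may be technical.

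Astrocytes are the glial cells that surround synapses and blood vessels, take up glutamate and potassium, and are joined to each other by gap junctions. In injury and inflammation they become reactive, and a rise of Gfap, the main intermediate filament of the mature astrocyte, is the customary sign of that state. In bulk tissue, fewer cells of a type and less RNA per cell cannot be told apart.

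The libraries held between 5406669 and 8723823 reads assigned to features. The deposited values are reads divided by 1 size factor per library and are called normalized reads here. The factors had been set separately in 2 sets. Set 1 joined the heterozygous libraries and homozygous replicates 1 to 3, while set 2 joined wild type and homozygous replicates 4 to 6. Homozygous libraries were therefore compared with heterozygous ones inside set 1 and with wild-type ones inside set 2. Levels across all 11 libraries are given in CPM, a read count relative to library size, after joint scaling. Ercc6 was lower in homozygous than in wild-type libraries by a log2 difference of -1.69 (SE 0.22, limma adjusted p = 0.0171), without overlap. In set 1 the homozygous libraries lay below both heterozygous ones, by only -0.37 (SE 0.25, limma adjusted p = 0.576). Among all features 5.27% were lower without overlap in set 2 and 15.1% in set 1. For heterozygous against wild type the log2 difference of Ercc6 was -1.32 (SE 0.33, limma adjusted p = 0.585). The tissue label went against the cortical neuron, granule cell and Bergmann glia markers. The lists of other astrocyte markers hold different genes, so their sums, given last, do not tell the region. Summed CPM of the 4 listed of 8 cortical excitatory neuron markers was 5213 to 9351. The 2 listed of 8 cerebellar granule cell markers summed to 5.64 to 48.9 CPM. The 2 listed of 8 markers of Bergmann glia, the radial astrocytes of the cerebellum, summed to 17.7 to 42.5 CPM. The 5 velate and cerebellar astrocyte markers, Aqp4 among them, summed to 1135 to 2047 CPM. The 3 listed of 5 forebrain astrocyte markers summed to less in every library, at 424 to 1286 CPM. Few genes made up these sums. In homozygous replicate 1 Aqp4 gave 1305 and Slc6a11 402 of 1899 CPM, and Mfge8 gave 752 of the 761 CPM of the forebrain list.

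The 8 genes were plainly read in every library, with Sox9 the weakest at 83 to 295 reads and Gfap at 6214 to 31438. Their feature coordinates are on rn6. Per kilobase of the deposited feature length, Aldoc had the highest level of the 8 genes in all 11 libraries and Sox9 the lowest. Gfap had rank 2 in all 6 homozygous libraries and rank 4 or 5 in the other 5, at 814 to 1153 CPM per kilobase against 245 to 705. In homozygous replicate 4 it was level with Aldoc, at 1153 against 1156 CPM per kilobase. Across libraries Gja1 varied least, with its highest CPM 1.63 times its lowest, and Vim most, at 5.30 times. The ratio was 4.70 for Gfap, 3.32 for S100b, 2.96 for Sox9, 2.80 for Aldoc, 2.14 for Slc1a3 and 1.96 for Aqp4.

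The 250 bases before the RefSeq start are printed for 4 of the genes (RefSeq, GRCr8), Gfap and Vim because both encode intermediate filaments of astrocytes and Gfap was without overlap between groups where Vim overlapped, and Aldoc and S100b because they had like levels across libraries. Capitals mark the TATA box (letters TATAAA), the GC box (letters GGGCGG) and the CCAAT box on either strand. The Gfap window is at chr10:88361662-88361911 on the minus strand, the Vim window at chr17:81577011-81577260 on the plus strand, the Aldoc window at chr10:63715294-63715543 on the plus strand and the S100b window at chr20:12381082-12381331 on the minus strand.
Gfap: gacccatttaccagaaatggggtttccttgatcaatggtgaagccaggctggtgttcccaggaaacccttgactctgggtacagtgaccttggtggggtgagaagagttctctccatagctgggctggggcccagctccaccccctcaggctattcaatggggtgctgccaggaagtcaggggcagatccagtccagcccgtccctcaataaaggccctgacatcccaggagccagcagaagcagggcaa
Vim: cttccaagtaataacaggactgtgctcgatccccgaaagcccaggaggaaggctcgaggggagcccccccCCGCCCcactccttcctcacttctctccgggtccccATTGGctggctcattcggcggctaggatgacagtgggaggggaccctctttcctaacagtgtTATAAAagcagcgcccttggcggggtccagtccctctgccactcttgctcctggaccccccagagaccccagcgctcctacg
Aldoc: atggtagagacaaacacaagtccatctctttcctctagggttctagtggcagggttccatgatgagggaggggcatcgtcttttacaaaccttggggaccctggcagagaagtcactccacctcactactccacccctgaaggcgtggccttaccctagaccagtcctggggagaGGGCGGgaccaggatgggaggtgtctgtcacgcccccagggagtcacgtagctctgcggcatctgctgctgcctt
S100b: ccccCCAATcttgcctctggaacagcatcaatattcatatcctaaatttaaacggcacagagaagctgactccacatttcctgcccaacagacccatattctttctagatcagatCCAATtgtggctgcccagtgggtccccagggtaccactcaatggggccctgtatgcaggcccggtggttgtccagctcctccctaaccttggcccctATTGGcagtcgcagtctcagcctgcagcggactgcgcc

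In the windows of 9 of the 10 genes, 8 motifs were searched on both strands, these 3 boxes, the STAT motif (letters TTCNNNGAA), the AP-1 motif (letters TGANTCA), the CRE motif (letters TGACGTCA), the SOX motif (letters AACAAT) and the NFI motif. The Gfap window held none of them. Its GC content was 57.6%, against a median of 51.2% over 33469 windows of the same length. The Vim window held the TATA box at -82 to -77 from the start, the GC box at -180 to -175 and the CCAAT box at -144 to -140, the latter pair on the other strand. The Aldoc window held the GC box at -75 to -70 and the S100b window the CCAAT box at 3 places. The TATA box was in 12.9% of all windows, the GC box in 30.5%, the CCAAT box in 34.0%, the STAT motif in 7.67%, the AP-1 motif in 6.34%, the SOX motif in 10.3%, the CRE motif in 1.59% and the NFI motif in 0.732%. A match describes letters and no match says nothing of a factor.

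Gfap (ENSRNOG00000002919, chromosome 10, 90990762 to 90999506, rn6, minus strand) was higher in every homozygous library than in every other one. In set 2 homozygous replicates 4 to 6 held 27372, 26901 and 19108 normalized reads, and the wild-type replicates 16602, 5832 and 11141. In set 1 homozygous replicates 1 to 3 held 20102, 19747 and 26113, and the heterozygous replicates 16089 and 11856. The groups did not overlap in either set. The wild-type libraries were the most scattered, and replicate 2 was the lowest of all 11. The mean was 24461 ± 4641 (SD, n = 3) against 11192 ± 5385 (n = 3) in set 2, a log2 difference of 1.23 (SE 0.32), and 21988 ± 3578 (n = 3) against 13972 ± 2993 (n = 2) in set 1, a log2 difference of 0.66 (SE 0.35). These differences are on the log2(value + 1) scale, and as Gfap was chosen for this pattern they are a description.

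With all libraries scaled together, Gfap was at 2978 to 4223 CPM in the 6 homozygous libraries, at 2468 and 1824 in the heterozygous, and at 2581, 899 and 1732 in the wild-type libraries. Homozygous replicates 1 to 3 spanned 2978 to 4022 CPM and replicates 4 to 6 spanned 2996 to 4223, so these parts of the group overlapped. Of 20956 features with a mean of at least 1, 59 (0.282%) were higher in all 6 homozygous libraries than in all 5 others. Within the sets, 6.14% of features were higher without overlap in homozygous 4 to 6 than in wild type, and 15.2% in homozygous 1 to 3 than in heterozygous libraries.

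**Figure D1:**
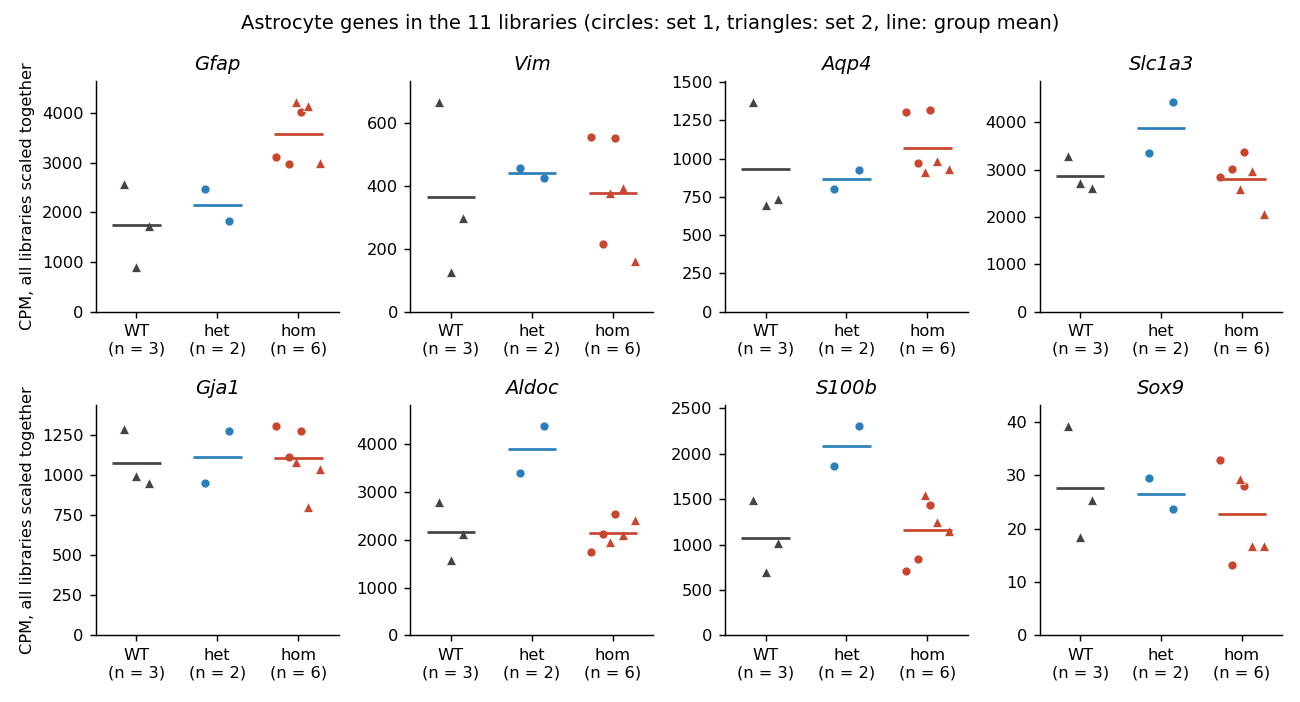
Level of each of the 8 astrocyte genes (y axis, CPM with all 11 libraries scaled together) in wild-type (WT), heterozygous (het) and homozygous (hom) libraries, with 1 point per library and a line at the group mean. The 6 homozygous points of Gfap lie at 2978 to 4223 CPM, above the highest of the others at 2581, while the other genes show no such separation from wild type.

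Over all features limma called 8 of 20956 (0.0382%) between homozygous and wild type and 0 (0%) in each of the other comparisons, at a Benjamini-Hochberg adjusted p under 0.05. At an unadjusted p under 0.05 the counts were 1330 for homozygous against wild type, 2539 for homozygous against heterozygous and 1669 for heterozygous against wild type. edgeR called 5, 0 and 0 features, DESeq2 37, 205 and 27, and limma-voom 4, 0 and 0. None of the 8 astrocyte genes was called in any comparison. Gfap had an adjusted p of 0.484 in limma against wild type and 0.480 against heterozygous. The members were chosen with these contrasts known, and the count is given beside the background only.

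Against wild type the other 7 genes overlapped between the groups, and their log2 differences lay between -0.38 for Sox9 and 0.36 for S100b. Vim (chromosome 17, 80882666 to 80891212, plus strand), the other intermediate filament of astrocytes and also a protein of fibroblasts and vessel walls, held 2440, 2555 and 1037 normalized reads in homozygous replicates 4 to 6, against 4284, 815 and 1921 in wild type. The wild-type libraries held both the highest and the lowest value. Its log2 difference was -0.02 with a 95% interval of -1.18 to 1.14. In set 1 it held 3598, 1418 and 3590 against 2968 and 2763, so the heterozygous libraries lay inside the homozygous range.

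Vim is also made by meningeal fibroblasts. The 5 listed of 8 meningeal fibroblast markers (Dcn, Lum, Col1a1, Col3a1 and Igf2) summed to 368, 50.3, 349, 79.2, 396 and 38.4 CPM in homozygous replicates 1 to 6, to 98.7 and 66.5 in the heterozygous and to 570, 39.0 and 155 in the wild-type libraries. Vim was highest, at 666 CPM, in the library with the largest sum and lowest, at 126 CPM, in wild-type replicate 2, which had one of the smallest. The library with the smallest sum, homozygous replicate 6, had the next lowest Vim, 163 CPM. Homozygous replicates 1 and 3, with sums of 368 and 349, also had high Vim, at 556 and 553 CPM. Homozygous replicate 2, with a sum of 50.3, had low Vim, at 214 CPM. Some libraries did not follow that order. Vim was 455 and 425 CPM in the heterozygous libraries at sums of 98.7 and 66.5, above the 394 CPM of homozygous replicate 5 at a sum of 396 and the 299 CPM of wild-type replicate 3 at 155. Gfap in the homozygous libraries was 2978 and 2996 CPM where the sum was 50.3 and 38.4, 3105 to 4144 where it was 349 to 396, and 4223 where it was 79.2. All 5 markers were listed at a positive mean in each group. The part of meningeal cells in the level of Vim was not tested.

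**Figure D2:**
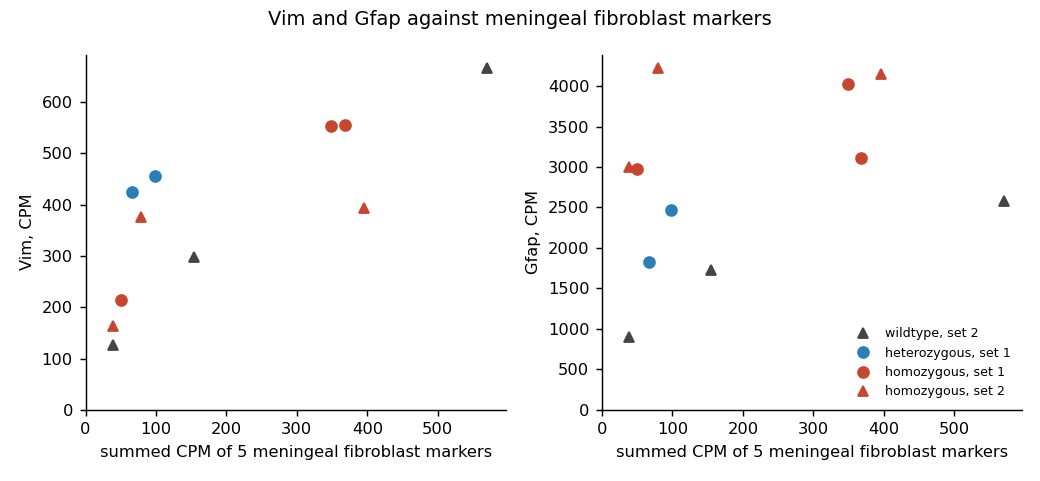
Vim (left) and Gfap (right) in CPM against the summed CPM of 5 meningeal fibroblast markers, with 1 point per library, colour for genotype and shape for set. Vim is at 666 CPM at the largest sum of 570, and Gfap is at 4223 CPM in a homozygous library with a sum of 79.2.

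Aqp4 (chromosome 18, 6765945 to 6782996, minus strand), the water channel of astrocyte endfeet at vessels, was high in homozygous replicates 1 and 3 and in wild-type replicate 1. It held 5911, 6400 and 5965 normalized reads in homozygous replicates 4 to 6, against 8817, 4535 and 4742 in wild type, so the highest wild-type library lay above all 3. In set 1 it held 8448, 6466 and 8554 in homozygous and 5228 and 6029 in heterozygous libraries, without overlap and with a log2 difference of 0.47 (SE 0.26). Among all features 15.2% were higher without overlap in that comparison. Against wild type the log2 difference of Aqp4 was 0.08 (95% interval -0.43 to 0.59).

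Slc1a3 (chromosome 2, 57860834 to 57935363, minus strand) encodes GLAST, a glutamate transporter of astrocytes. It held 16773, 19270 and 13193 normalized reads in homozygous replicates 4 to 6, while wild type held 21104, 17650 and 16728, a log2 difference of -0.18 (95% interval -0.60 to 0.23). In set 1 the values were 18351, 19948 and 21856 against 21787 and 28749, with a log2 difference of -0.32 (SE 0.22). The homozygous and control ranges overlapped in both sets, and the highest single value was in heterozygous replicate 2.

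Gja1 (chromosome 20, 37876650 to 37889089, plus strand), which encodes connexin 43, the main gap junction protein of astrocytes, was the steadiest. It held 7013, 5218 and 6625 normalized reads in homozygous replicates 4 to 6, against 8281, 6462 and 6116 in wild type. In set 1 it held 8469, 7399 and 8289 against 6213 and 8301. The groups overlapped in both sets, and the log2 differences were -0.14 (95% interval -0.55 to 0.26) and 0.16 (-0.29 to 0.62).

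Sox9 (chromosome 10, 101288489 to 101293379, plus strand), a transcription factor of the astrocyte lineage, held 189, 109 and 107 normalized reads in homozygous replicates 4 to 6, against 253, 119 and 163 in wild type. In set 1 it held 213, 87.9 and 182 against 192 and 154. The groups overlapped in both sets. An unnamed feature on the same strand overlaps it with a mean of 130 normalized reads, so reads could have been divided between them and the level of Sox9 is uncertain.

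Aldoc (chromosome 10, 65586504 to 65590126, plus strand) encodes the aldolase C of astrocyte glycolysis, which Purkinje cells of the cerebellum also make, and S100b (chromosome 20, 13130636 to 13142856, minus strand) a calcium-binding protein of astrocytes and some oligodendrocytes. Both lay lower in the homozygous libraries of set 1 than in the heterozygous ones and overlapped wild type in set 2. Aldoc held 11333, 14095 and 16527 normalized reads against 22184 and 28532, a log2 difference of -0.86 (SE 0.25). S100b held 4622, 5591 and 9320 against 12180 and 14995, a log2 difference of -1.12 (SE 0.33). Neither overlapped between these groups, where 15.1% of all features were lower without overlap. In set 2 Aldoc held 12616, 13698 and 15407 in homozygous and 17937, 10192 and 13632 in wild-type libraries (log2 difference 0.03, 95% interval -0.45 to 0.52). S100b held 9985, 8098 and 7351 against 9585, 4514 and 6547 (0.36, -0.28 to 0.99). The groups overlapped for both genes. S100b touches an unnamed feature of the opposite strand at its end.

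On the joint scale Aldoc was at 3403 and 4391 CPM in the heterozygous libraries, above the 1570.5 to 2788 CPM of the other 9, and S100b at 1868 and 2308 CPM, above 695 to 1540 CPM. The share of all features higher in both heterozygous libraries than in the other 9 was not counted, so these separations are a description. Heterozygous libraries share no set with wild type, and the difference between them carries the error of both contrasts. It was 0.90 (SE 0.34) for Aldoc, 1.48 (SE 0.44) for S100b and 0.58 (SE 0.47) for Gfap on the log2 scale. Markers of some other cells were also high in the same libraries, and those of others low or within range. The 4 listed markers of endothelium and pericytes summed to 1817 and 3565 CPM there and to 663 to 1371 in the other 9. The 6 of microglia summed to 855 and 955 against 336 to 708, and the 2 of oligodendrocyte precursors to 1489 and 1874 against 793 to 1218. The 6 neuron markers were lowest there, at 2181 and 2280 CPM against 2285 to 5697, and the granule cell markers were at 10.3 and 5.64 against 8.30 to 48.9. The 3 Purkinje cell markers were at 202 and 83.2 against 186 to 521. The part of these cells in the 2 genes was not tested.

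**Figure D3:**
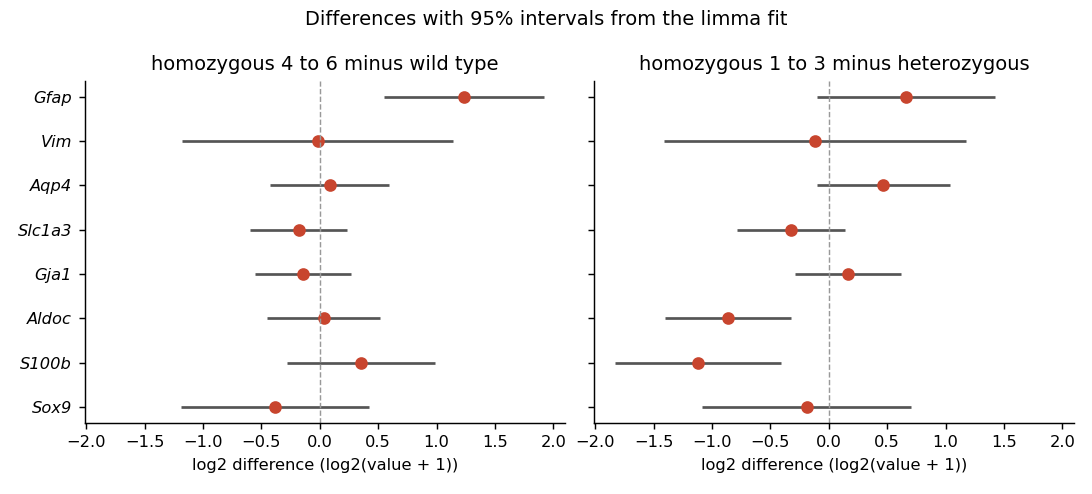
Log2 difference of each of the 8 genes (x axis, log2(value + 1) scale) in homozygous 4 to 6 minus wild type (left) and homozygous 1 to 3 minus heterozygous (right), with 95% intervals from the limma fit. Gfap is at 1.23 and 0.66, and Aldoc and S100b are at -0.86 and -1.12 on the right only.

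Gfap was also read against the other astrocyte genes of the same library. The median log2 CPM of the other 7 genes was 9.93 to 10.36 in homozygous, 9.90 and 10.32 in heterozygous and 9.45 to 10.42 in wild-type libraries. Gfap exceeded that median by 1.25, 1.61, 1.61, 1.96, 2.07 and 1.53 in homozygous replicates 1 to 6. It exceeded it by 1.37 and 0.51 in the heterozygous and by 0.91, 0.36 and 0.87 in the wild-type replicates. All 6 homozygous values lay above all 3 wild-type values, but homozygous replicate 1 lay below heterozygous replicate 1. The share of all reads on Gfap was 0.294% to 0.430% in homozygous libraries and 0.0916% to 0.263% in the others.

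**Figure D4:**
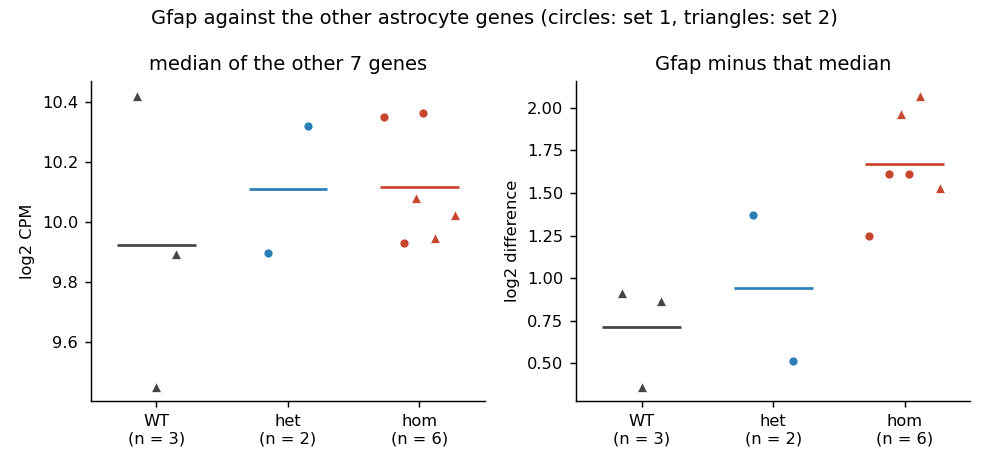
Median log2 CPM of the other 7 astrocyte genes (left) and Gfap minus that median (right), with 1 point per library and a line at the group mean. The left panel spans 9.45 to 10.42 with full overlap, and on the right homozygous libraries span 1.25 to 2.07 and wild-type ones 0.36 to 0.91.

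Inside groups, Gfap varied with Vim most closely. After log2 CPM was centred within each combination of genotype and set (7 degrees of freedom over 11 libraries), Pearson's r with Gfap was 0.88 for Vim, 0.77 for S100b, 0.68 for Aqp4, 0.67 for Sox9, 0.59 for Aldoc, 0.40 for Slc1a3 and 0.20 for Gja1. Spearman's rho was 0.80 for Vim, 0.76 for Sox9, 0.75 for S100b, 0.53 for Aqp4, 0.35 for Aldoc, 0.30 for Slc1a3 and 0.02 for Gja1. Wild-type replicates 1 and 2 lay farthest from the median of centred Gfap itself, so r can fall through their removal alone. Without both, r was 0.71 for Vim, 0.51 for S100b, 0.50 for Sox9 and 0.32 for Slc1a3. It was 0.14 for Aqp4, -0.21 for Aldoc and -0.38 for Gja1. Without wild-type replicate 2 alone, r was 0.54 for Aqp4, 0.12 for Aldoc and 0.04 for Gja1. The r of Aqp4 and Aldoc with Gfap was thus lower without these libraries. As removal alone can lower r, this does not tell whether the relations rest on them. Gja1 had little relation with Gfap over all 11. Among the other pairs, Vim and Sox9 reached 0.84 and Aldoc and S100b 0.81, the latter 0.87 across the 11 libraries without centring. These are descriptions over 11 libraries, whose depth and cell type markers vary.

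**Figure D5:**
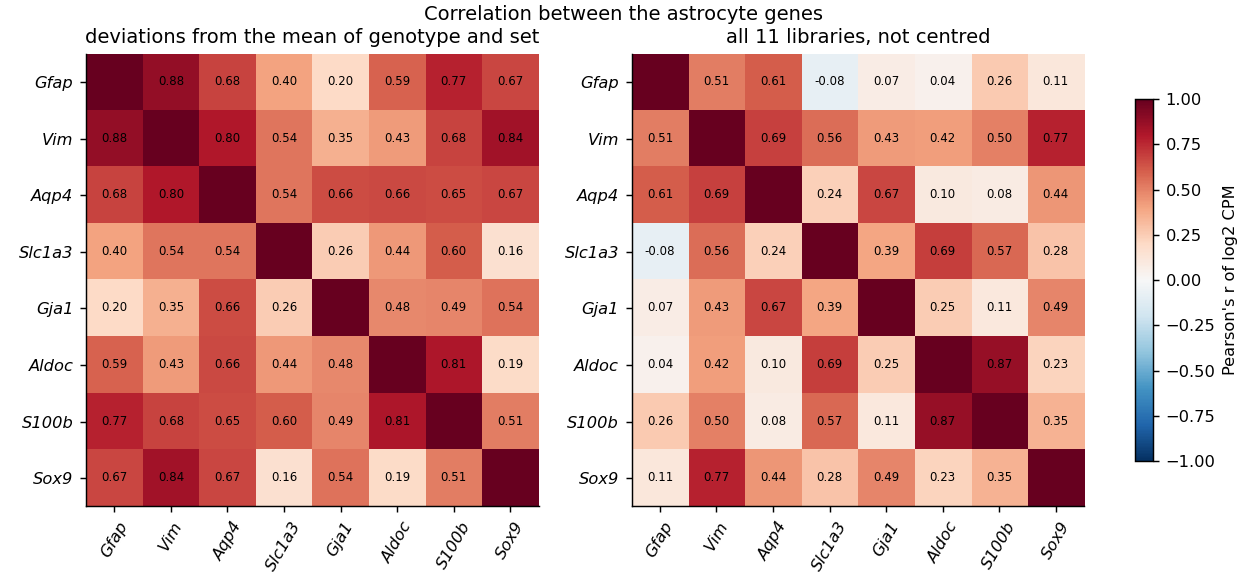
Pearson's r between the 8 astrocyte genes over log2 CPM, after centring within genotype and set (left) and across all 11 libraries without centring (right), with red for positive and blue for negative values. Gfap and Vim reach 0.88 on the left and 0.51 on the right, and Aldoc and S100b reach 0.81 and 0.87.

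Among 3953 named genes with a mean of at least 50 reads, the 5 whose centred levels were most like Gfap were Cyb5a (r = 0.97), Ifitm3 (0.97), Sumf2 (0.96), Calr4 (0.96) and Diras3 (0.95). The 3 least like it were Oprd1 (-0.99), Rnf19a (-0.95) and Lemd2 (-0.95). Ifitm3, an interferon-induced membrane protein, was also like Gfap across all 11 libraries without centring (r = 0.93), while Cyb5a, Diras3 and Rnf19a were at 0.31, 0.22 and -0.03. In set 1 Ifitm3 held 185, 163 and 193 normalized reads in homozygous libraries and 183 and 139 in heterozygous ones. In set 2 it held 252, 236 and 182 in homozygous and 223, 61.9 and 121 in wild-type libraries. Oprd1, an opioid receptor, was highest, at 176 normalized reads, in wild-type replicate 2, the library lowest for Gfap, and 18.6 to 57.4 elsewhere. Sumf2, Calr4 and Lemd2 lie under another feature of the same strand, and their levels are uncertain. Without wild-type replicate 2 the r of these 8 genes with Gfap kept its sign, at 0.93 for Cyb5a and -0.96 for Oprd1.

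Other astrocyte genes were read as lists, and no gene of any of the 12 lists was called in any comparison. Of 14 tested genes of astrocyte identity beside the members, 13 had a negative log2 difference between homozygous and heterozygous libraries, with a median of -0.76, beside a median of 0.04 over all features. With each library left out in turn, 11 to 13 of the 14 were negative. The same heterozygous libraries had the high endothelial, microglial and precursor sums and the low neuron sums given above, and the part of those cells in this list was not tested. Glul, the glutamine synthetase of astrocytes, held 32174, 37585 and 46880 normalized reads in homozygous replicates 1 to 3, against 57456 and 96440 in the heterozygous ones, a log2 difference of -0.95 (SE 0.27, limma adjusted p = 0.263). Acsbg1, an acyl-CoA synthetase, had a difference of -0.93 (SE 0.26) and Ppp1r3c, a glycogen-targeting subunit of protein phosphatase, -0.96 (SE 0.32). The groups did not overlap for these 3 genes, picked for the smallest p of the list. Among all features 15.1% were lower without overlap in that comparison. Against wild type the median was -0.08 with 11 of 14 negative. Without wild-type replicate 1 it was 0.10, so the direction of that median rested on 1 library. Aldh1l1, often used to mark astrocytes, held 1.06 to 16.4 normalized reads under a feature of the same strand, and its level is uncertain.

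Genes of glutamate and potassium handling (7 tested) had medians of -0.11 against wild type and -0.31 against heterozygous libraries. The former was 0.07 without wild-type replicate 1. The latter was 0.20 without heterozygous replicate 2 and -1.07 without heterozygous replicate 1. Slc38a3, a glutamine exporter, held 1247, 1654 and 1665 normalized reads in homozygous replicates 1 to 3, against 1935 and 3963 in the heterozygous ones (log2 difference -0.88, SE 0.29). Kcnj10, the inward rectifier potassium channel of astrocytes, held 0 to 12.2 normalized reads and lies under a feature of the same strand. Perivascular endfoot genes (4 tested) had medians of 0.07 and 0.34. With a library left out the former ran from -0.07 (without homozygous replicate 6) to 0.31 (without homozygous replicate 4). The latter ran from -0.09 (without heterozygous replicate 1) to 0.62 (without homozygous replicate 2), so the sign of each rested on 1 library. Of these genes, Dmd, Dtnb and Lama2 never exceeded 18, 16 and 46 reads in a library. Dtnb and Lama2 also lie under a feature of the same strand. Connexins and pannexins (8 tested) had medians of -0.25, or -0.39 without homozygous replicate 4, and -0.63, or -0.39 without homozygous replicate 1.

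The 8 tested intermediate filament and linker genes had a median of 0.01 against wild type, with 4 positive, and of 0.23 against heterozygous, with 5 positive. The former was -0.14 without wild-type replicate 2 and the latter -0.13 without heterozygous replicate 2. Nes, the filament of neural progenitors and of some reactive astrocytes, held 54.8, 79.5 and 107 normalized reads in homozygous replicates 1 to 3, against 275 and 158 in the heterozygous ones, opposite in sign to Gfap, with a log2 difference of -1.41 (SE 0.44). In set 2 it held 77.2, 70.3 and 49.1 in homozygous and 121, 44.1 and 64.8 in wild-type libraries, which overlap. Synm, which encodes synemin, a filament partner of Gfap and Vim, had a log2 difference of -0.46 (SE 0.28) against wild type.

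Transcription factors of the astroglial lineage (7 tested) had medians of -0.06, or 0.16 without wild-type replicate 1, and -0.50, or -0.22 without homozygous replicate 1. Rfx4 had a log2 difference of -0.63 (SE 0.28) and Hes1, a target of Notch signalling, of -0.54 (SE 0.26) against heterozygous libraries. Of 18 tested genes of the cytokine signalling known to induce GFAP, 13 were negative against wild type with a median of -0.26. Without wild-type replicate 1 the median was 0.06, and without wild-type replicate 2 it was -0.40. Against heterozygous it was -0.20, from -0.37 without homozygous replicate 1 to -0.02 without homozygous replicate 2. Tgfb1, which encodes the cytokine TGF-beta 1, held 376, 369 and 482 normalized reads in homozygous replicates 1 to 3, against 816 and 938 in the heterozygous ones (log2 difference -1.11, SE 0.33). Cntfr, the receptor subunit for ciliary neurotrophic factor, had log2 differences of -0.33 (SE 0.16) against wild type and -0.55 (SE 0.18) against heterozygous libraries, with no overlap in either set. Among all features 5.27% were lower without overlap in set 2, beside the 15.1% in set 1.

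Published sets of reactive astrocyte genes were read next. The 7 tested pan-reactive genes had a median of 0.54 against wild type, or 0.23 without homozygous replicate 5. Against heterozygous it was -0.08, from -0.41 without heterozygous replicate 1 to 0.04 without heterozygous replicate 2. Cxcl10, an interferon-induced chemokine, held 62.0, 79.3 and 68.3 normalized reads in homozygous replicates 4 to 6, against 16.4, 4.69 and 9.96 in wild type, with a log2 difference of 2.78 (SE 0.57, limma adjusted p = 0.257). In set 1 Cxcl10 held 37.5, 19.1 and 83.1 in homozygous and 7.44 and 2.44 in heterozygous libraries. That log2 difference was 2.90 (SE 0.64, limma adjusted p = 0.200). Cd44, a hyaluronan receptor, held 328, 152 and 242 in homozygous replicates 1 to 3 and 100 and 58.6 in the heterozygous ones (log2 difference 1.57, SE 0.43). In set 2 it held 243, 163 and 218 against 223, 80.7 and 112, which overlap. Hspb1, a small heat shock protein whose feature lies under another of the same strand, had a log2 difference of -1.07 (SE 0.39) against heterozygous libraries.

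Of 7 tested A1-type genes, which were defined in mouse astrocytes after lipopolysaccharide, 6 were positive against wild type with a median of 1.14, and with each library left out in turn 6 or 7 were positive. C3, the central complement component, held 2744, 1582 and 2680 normalized reads in homozygous replicates 4 to 6, against 957, 350 and 320 in wild type, a log2 difference of 2.25 (SE 0.38, limma adjusted p = 0.0858). In set 1 it held 2503, 2906 and 3034 against 1283 and 2306. C3 thus lay above the control group of each set without overlap. Among all features 6.14% were higher without overlap in set 2 and 15.2% in set 1. On the joint scale C3 in homozygous replicate 5, at 244 CPM, lay below heterozygous replicate 2, at 355 CPM. Psmb8, an immunoproteasome subunit, and Gbp2, a guanylate-binding protein, both interferon-inducible in many cell types, had log2 differences of 1.15 (SE 0.32) and 1.14 (SE 0.35) against wild type. Against heterozygous libraries 2 of the 7 were positive, with a median of -0.21 that was -0.52 without heterozygous replicate 1 and 0.05 without heterozygous replicate 2. For heterozygous against wild type 7 of 7 were positive with a median of 1.49. Microglia markers summed to 661, 558 and 465 CPM in homozygous replicates 4 to 6 and to 708, 336 and 385 in the wild-type replicates. In the heterozygous replicates they summed to 955 and 855 CPM. Of the 6 microglia markers, 5 were positive for homozygous against wild type, with a median log2 difference of 0.39. For heterozygous against wild type 6 of 6 were positive, with a median of 0.83. The part of microglia in the A1-type genes was not tested.

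The 10 tested A2-type genes, defined in mouse astrocytes after stroke, had a median of -0.37 against wild type, or -0.10 without wild-type replicate 1, and of 0.64 against heterozygous, or 0.02 without heterozygous replicate 2. Ptx3, a secreted pentraxin, held 16.6, 10.6 and 20.8 normalized reads in homozygous replicates 1 to 3, against 3.72 and 1.22 in the heterozygous ones, a log2 difference of 2.34 (SE 0.57), at few reads and under a feature of the opposite strand. S100a10, an annexin partner, had a difference of -0.92 (SE 0.25) in the same contrast. S100 genes other than S100b (5 tested) were positive in 5 of 5 against wild type with a median of 0.66, and negative in 5 of 5 against heterozygous with a median of -0.45. The medians were 0.37 without wild-type replicate 2 and -1.0 without heterozygous replicate 1, and the negative count fell to 3 with a library left out. S100a8, S100a9 and S100a13 never exceeded 16, 18 and 10 reads in a library. The 7 tested paralogues of the transporter, aldolase and water channel members had medians of -0.08 (from -0.30 without homozygous replicate 5 to 0.02 without homozygous replicate 4) and 0.26 (from 0.13 without heterozygous replicate 2 to 0.52 without homozygous replicate 2). Aldoa, the aldolase of most tissues, held 31677 to 38336 normalized reads in homozygous 4 to 6 and 22258 to 35647 in wild type.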

How the data were processed

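RNA was measured in 11 libraries. The submitters' processing notes name HISAT2 2.0.4, FastQC and rn6 as the build. How reads were counted, and with which annotation and strand setting, is not given in the sources used here. In each file the authors deposited a signal per feature, which is the read number over a size factor of its library. All deposited values (100%) were whole reads within 0.001, so reads were recovered, and recomputed factors showed the 2 sets.

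The main test was limma 3.58.1 (R 4.3.3, mean-variance trend) on log2(value + 1), with genotype and set in 1 fit of 11 libraries, over 20956 features with a mean of at least 1. Benjamini-Hochberg adjusted p under 0.05 was called. In this fit homozygous is compared with wild type inside set 2 and with heterozygous inside set 1. CPM came from TMM scaling in edgeR 4.0.16, with a prior count of 2 for log2. edgeR and DESeq2 1.42.0 on the recovered reads were alternatives. The fit was tested on simulated data. Libraries held 5406669 to 8723823 reads, of which 25.1% to 31.5% fell on features with no gene name.

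The members and gene lists were chosen with earlier results of these data known. Named were all members, any list gene past the threshold, up to 3 list genes with the smallest p per comparison (of which a few are described), and the 5 genes most and 3 least like Gfap. Strand use in counting is unknown, so overlapping features are uncertain. Slc1a2 and Gjb6 were not analysed here.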

Additional observations from a re-analysis of the deposited data

How the results depend on the processing

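Gfap stayed higher in homozygous than in the other libraries under every alternative run, with log2 differences of 0.83 (without wild-type replicate 2) to 1.58 (without wild-type replicate 1) against wild type and 0.44 (without heterozygous replicate 2) to 0.88 (without heterozygous replicate 1) against heterozygous libraries. Its adjusted p against wild type ranged from 0.117 to 0.936, and none of 544 member values under an alternative passed the threshold. Of these, 512 kept their direction and 32 changed sign. The libraries differed in Y-linked reads, and the Y-linked covariate marked those with at least 100 reads of Eif2s3y. How these fell across the genotypes is not reported here. Against wild type, Vim was 0.22 without the set term, 0.33 with Y-linked reads as a covariate and -0.62 to 0.57 with each library left out. Gja1 was 0.030 without the set term, Aldoc was -0.015 in edgeR, -0.14 with the Y-linked covariate and -0.17 to 0.23 with each library left out, and Aqp4 -0.087 to 0.39. Against heterozygous libraries Gja1 was -0.017 without the set term and -0.046 to 0.37 with each library left out, Vim -0.34 to 0.33 and Sox9 -0.44 to 0.19. For heterozygous against wild type, Vim was -0.23 in edgeR, -0.20 in DESeq2 and -0.50 to 0.69 with each library left out, Slc1a3 -0.059 to 0.34 and Sox9 -0.58 to 0.092. Without the set term Gja1 was 0.047 and Sox9 0.0036. The cause was not tested.

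Correlations of same-numbered deviations ran from -0.14 to 0.22. Differently numbered libraries were not compared, so these values do not decide whether the replicate numbers pair the libraries. With a replicate block and no set term, Gfap was 1.07, 0.55 and 0.52 in the 3 comparisons, and the values that changed sign were Vim 0.46, Slc1a3 0.10, Gja1 0.20 and S100b -0.096 against wild type, and Gja1 0.018 and Sox9 0.059 for heterozygous against wild type. The replicate block gave 4, 2 and 2 features called.

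The count of features called between homozygous and wild type was 37 in DESeq2, 5 in edgeR, 4 in limma-voom, 5 with a pseudocount of 5, 3 with only these groups in the fit, 2 with the Y-linked covariate and 2 to 11 with each library left out. Between homozygous and heterozygous it was 205 in DESeq2, 16 without the set term, 5 with the Y-linked covariate and 0 to 3 with each library left out. Between heterozygous and wild type it was 27 in DESeq2, 1 with a pseudocount of 5, 2 without the set term and 0 to 7 with each library left out. A fit of only the heterozygous and wild-type groups was not run, as no set holds both. The list counts with each library left out were chosen after seeing the data. Sox9, with 83 to 295 reads, and the genes with few reads are limited by depth.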
